A study of Mus musculus with 2 samples.

Results

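The signal transducers and activators of transcription (STATs) are latent transcription factors that carry cytokine signals from the cell surface to the nucleus. Janus kinases (JAKs) bound to a cytokine receptor phosphorylate the receptor and then a tyrosine of the STAT, and the phosphorylated STATs pair through their SH2 domains and bind DNA. In chronic myeloid leukemia (CML) the BCR-ABL kinase keeps STAT5 phosphorylated, and STAT5 is known for driving survival genes in these cells. STAP-1 is an adaptor protein of hematopoietic cells that is known to bind signaling kinases, and its relative STAP-2 is known as a partner of STAT3 and STAT5. The mRNA of 6 STAT genes (Stat2, Stat3, Stat4, Stat5a, Stat5b and Stat6) was examined here. They were selected by gene symbol, and each was found once among the 23284 gene symbols of both libraries.

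Leukemic stem cells (LSCs) of a mouse CML model were profiled by RNA-seq, with 1 WT library and 1 from STAP-1 KO donors. The donors were C57BL/6J mice, wild type or with a targeted disruption of the STAP-1 locus, and mice of 8 to 14 weeks were used. LSK cells (lineage-negative, Sca-1+ and c-Kit+ bone marrow cells) of both genotypes were transduced with a retrovirus for human BCR-ABL and green fluorescent protein (GFP) and transplanted with normal helper marrow into lethally irradiated C57BL/6SJL recipients. GFP+ CD45.2+ LSK cells were collected by sorting 11 days after the first transplantation, so that host cells were gated out and every sorted cell carried the oncogenic vector. How many mice were pooled for a library is not given in the sources used here. With 1 library per genotype no difference could be checked against replicates, and p-values were not computed. Intervals printed here are 95% intervals that cover counting error only, and therefore understate the spread between animals. Those of single genes and of sums come from exact limits on the estimated number of reads. Differences and ratios between STAT genes have intervals from a normal approximation on these reads, and shares have Wilson intervals.

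The values are FPKM (fragments per kilobase of transcript, scaled to the mapped fragments of the library), which the authors deposited for each library. FPKM is divided by transcript length, so that levels of different genes can be compared. The steps between the lowest values gave effective depths of 7490000 reads for WT and 10490000 reads for STAP-1 KO, but only 46.6% and 47.4% of the values below 0.3 FPKM that were used lay within 0.01 of a whole read, so that read numbers are estimates. Log2 ratios are log2((STAP-1 KO + 0.1)/(WT + 0.1)) and are negative where the STAP-1 KO library was lower. A gene was counted as lower or higher at a ratio of at least 2-fold with at least 0.1 FPKM in both libraries.

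The labels were checked against marker genes. Stap1 had 62.0 FPKM in WT and 0.309 FPKM in STAP-1 KO. The sorted antigens were present in both libraries but not at equal levels, with Kit (c-Kit) at 468 and 30.1 FPKM, Ly6a (Sca-1) at 284.7 and 105.6 FPKM and Ptprc (CD45) at 107.3 and 38.2 FPKM. Mast cell and basophil genes were very abundant in cells sorted as LSK, and 11 of 12 such markers were lower in STAP-1 KO, with a summed level of 52320 FPKM in WT and 5298 FPKM in STAP-1 KO. Of 8 neutrophil granule markers, 4 were higher, namely Mpo (248 and 1973 FPKM), Elane, Prtn3 and Ctsg. The other 4, Ltf (13.7 and 3.69 FPKM), Camp, Ngp and Mmp8, were lower. The sums of the 8 were 610.2 and 4182 FPKM. Of 8 B cell markers, 2 were higher (Cd79b at 3.10 and 17.8 FPKM, Igll1 at 0.201 and 0.433 FPKM), none was lower and 5 were under the floor, with Pax5 and Ebf1 listed at 0 in both. Of 11 T and NK cell markers, 4 were higher, among them Lck at 11.8 and 41.9 FPKM and Cd3g at 1.80 and 5.04 FPKM, and 2 were lower, Zap70 at 8.59 and 0.581 FPKM and Cd8a at 0.369 and 0.132 FPKM. Of 8 monocyte and macrophage markers, 4 were lower and 1 was higher. The counts were 2 lower and 2 higher of 6 eosinophil markers, 3 and 1 of 7 erythroid markers, 2 and 1 of 6 megakaryocyte markers, 2 and 2 of 8 hematopoietic stem cell markers, and 2 and 2 of 9 lineage antigens. Over all 12507 genes compared, 22.9% were lower and 12.3% higher, so counts near these shares are not read as a result. The erythroid counts include the globin genes Hba-a1 (34.8 and 380 FPKM) and Hba-a2 (772.5 and 15.9 FPKM). These copies are nearly identical, so the division of reads between them is uncertain. The libraries thus differed in mast cell and basophil markers and in neutrophil granule markers, and the part of such a difference in the STAT values below was not tested. In such bulk libraries, fewer cells of a type and less RNA per cell cannot be told apart.

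The STAT5 proteins are encoded by a pair of paralogs, Stat5a and Stat5b, and the libraries can separate them only where their transcripts differ. The coding sequences were 90.7% identical over 2343 aligned bases, and 6 coding runs of at least 75 bases, the read length, were identical. A read that lies wholly inside such a run cannot be assigned to either gene. An 89-base run lies within exon 14 of Stat5a (chr11:100879629-100879717, + strand, GRCm38) and exon 13 of Stat5b (chr11:100790847-100790935, - strand). It is shown because it is the same in both genes, in the sense strand.

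Stat5a and Stat5b shared run: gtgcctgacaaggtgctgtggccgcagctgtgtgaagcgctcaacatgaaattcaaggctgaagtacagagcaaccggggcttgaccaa

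In the longest coding transcripts, 387 of 3814 75-base windows of Stat5a (10.2%) and 387 of 5139 windows of Stat5b (7.53%) occurred in a transcript of the paralog, and no other pair of the 6 genes shared a window. The remaining windows were distinct.

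STAT dimers bind a palindrome called the GAS element, searched here as TTCNNNGAA or, with the wider spacer that STAT6 is known to favor, TTCNNNNGAA. The complex of STAT2 with IRF9 and a further STAT binds the interferon-stimulated response element (ISRE), searched as GAAANNGAAA on both strands. RefSeq promoters (GRCm38.p6, 250 bases before to 50 bases after each start) were matched for all 6 genes. TTCNNNGAA was in 9.55% of the 27025 genes with a promoter and in 0 of the 6, which says only that these letters are not in these windows. The wider element was in Stat2 (8.01% of genes) and the ISRE letters in Stat2 and Stat4 (3.99% of genes). The 250 bases upstream of Stat2 (chr10:128270248-128270497, + strand) are shown first, because both kinds of element lie side by side in them, followed by 30 bases before a second RefSeq start of Stat4 that lies within the gene (chr1:52008133-52008162, + strand). The promoter at the first Stat4 start held none of the searched letters. Capitals mark the matched letters, here and in the target promoters below, and a match of letters is a description and not a shown binding site.

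Stat2 promoter: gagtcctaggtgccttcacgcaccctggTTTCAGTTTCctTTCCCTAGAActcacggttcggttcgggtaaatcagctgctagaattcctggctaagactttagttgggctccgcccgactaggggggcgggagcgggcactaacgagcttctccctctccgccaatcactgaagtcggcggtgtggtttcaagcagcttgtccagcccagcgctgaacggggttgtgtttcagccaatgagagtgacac

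Stat4 second promoter: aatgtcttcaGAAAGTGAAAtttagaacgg

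Windows of 30 bases from the promoters of known STAT targets show the same elements in genes described below. Cish, a feedback inhibitor induced by STAT5, has GAS letters at its start (chr9:107296649-107296678, + strand), and Socs3, a feedback inhibitor induced by STAT3, has them upstream (chr11:117969501-117969530, - strand). The cytokine gene Il4 (chr11:53618813-53618842, - strand) has the wider element. In Isg15 (chr4:156200871-156200900, - strand) and Bst2 (chr8:71537583-71537612, - strand), which are interferon-stimulated, ISRE letters overlap each other, and in Bst2 they also overlap GAS letters.

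Cish: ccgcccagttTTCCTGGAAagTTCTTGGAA

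Socs3: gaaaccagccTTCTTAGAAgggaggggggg

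Il4: ttggtctgatTTCACAGGAAaatttacctg

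Isg15: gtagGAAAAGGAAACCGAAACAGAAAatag

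Bst2: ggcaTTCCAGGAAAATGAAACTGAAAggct

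All 6 STAT genes were expressed in both libraries, and 5 of 6 had a lower value in STAP-1 KO LSCs. Stat2, Stat5b and Stat6 were at least 2-fold lower, no member was at least 2-fold higher, and Stat3, Stat4 and Stat5a did not reach the cut-off. The background was high, since 22.9% of the 12507 genes compared were at least 2-fold lower and 12.3% were at least 2-fold higher. Among the 8299 genes averaging 5 FPKM or more, a level all 6 STAT genes exceeded, the shares were 18.8% lower and 10.7% higher. Among the 5314 genes whose longest transcript was between 2982 and 6042 bases, the range of the STAT genes, they were 24.4% lower and 8.2% higher. The median log2 ratio of the 6 members was -0.91, while the 10974 genes averaging 1 FPKM or more had a median of -0.04. With the corrections described below, the median of the members was -0.39 for transcript length and -0.25 for length and GC content. The sum of the 6 genes was 217.4 FPKM in WT and 128.9 FPKM in STAP-1 KO, 1.69-fold lower, with a log2 ratio of -0.75 (-0.80 to -0.70).

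**Figure D1:**
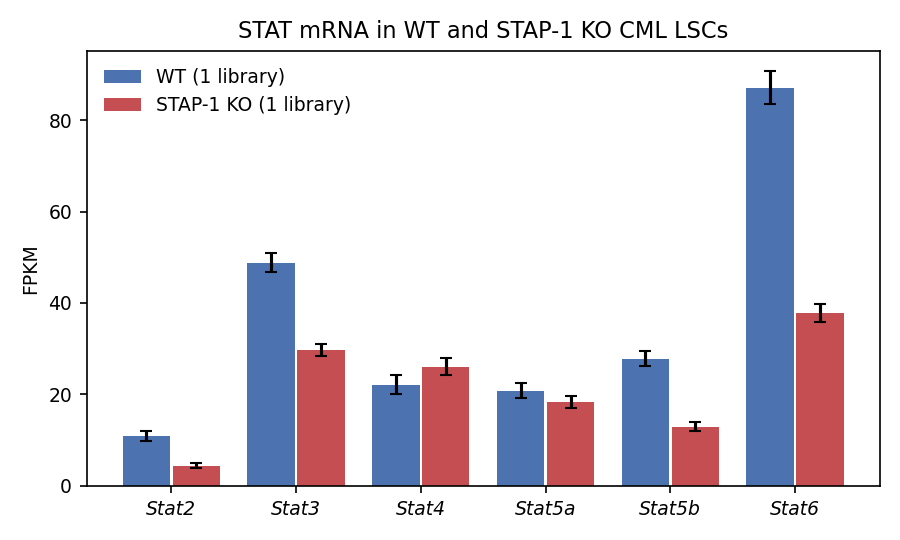
Bars show the FPKM of each STAT gene in the WT library (blue) and the STAP-1 KO library (red), and error bars are 95% counting intervals with no replicate behind them. Stat6 had the highest bar in both libraries (87.1 and 37.7 FPKM), and Stat4 was the only gene with a higher value in STAP-1 KO (22.1 and 25.9 FPKM).

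Stat6 (ENSMUSG00000002147.18, chr10:127642986-127660957, + strand), which transmits IL-4 and IL-13 signals, was the most abundant of the 6 mRNAs in the deposited FPKM. With the corrections described below, Stat3 stood above it in STAP-1 KO. It had 87.1 FPKM in WT and 37.7 FPKM in STAP-1 KO, from about 2326 and 1410 reads. The value was 2.31-fold lower in STAP-1 KO, with a log2 ratio of -1.20 (-1.30 to -1.11). Its share of the summed STAT FPKM was 40.1% in WT and 29.3% in STAP-1 KO. It stood in the top 9.13% of the genes above 0 FPKM in WT and in the top 21.5% in STAP-1 KO.

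Stat2 (ENSMUSG00000040033.16, chr10:128270559-128292849, + strand), the STAT of the type I interferon response, was the least abundant of the 6. It had 10.8 FPKM in WT and 4.38 FPKM in STAP-1 KO, from about 340 and 192 reads. This was 2.47-fold lower and the largest difference among the 6 genes, with a log2 ratio of -1.29 (-1.55 to -1.03). Its interval overlapped those of Stat6 and Stat5b. Stat2 and Stat6 lie on the same chromosome, with starts 627573 bases apart.

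Stat5b (ENSMUSG00000020919.11, chr11:100780731-100850724, - strand), a mediator of growth hormone, IL-2 and IL-3 signals, had 27.8 FPKM in WT and 12.9 FPKM in STAP-1 KO, from about 1042 and 678 reads. It was 2.15-fold lower, with a log2 ratio of -1.10 (-1.24 to -0.96). The interval extended to differences smaller than 2-fold, and the log2 ratio was -0.60 with the length correction and -0.46 with that for length and GC content, so that Stat5b no longer passed the cut-off. Stat5a (ENSMUSG00000004043.14, chr11:100859351-100885169, + strand), the paralog known for prolactin signaling, had 20.8 and 18.3 FPKM, from about 583 and 719 reads. It was 1.13-fold lower and below the cut-off, with a log2 ratio of -0.18 (-0.34 to -0.02) that was 0.18 once transcript length and GC content were taken into account, as described below.

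Stat3 (ENSMUSG00000004040.16, chr11:100885098-100939540, - strand), which transmits IL-6 and IL-10 signals, came next to Stat6 in deposited FPKM among the 6 mRNAs. It had 48.8 FPKM in WT and 29.6 FPKM in STAP-1 KO, from about 2132 and 1812 reads. It was 1.65-fold lower and below the cut-off, with a log2 ratio of -0.72 (-0.81 to -0.63). This ratio was -0.03 once length and GC content were taken into account. Stat4 (ENSMUSG00000062939.11, chr1:51987148-52107189, + strand), the mediator of IL-12 signals, had 22.1 FPKM in WT and 25.9 FPKM in STAP-1 KO, from about 460 and 754 reads. It was 1.17-fold higher, below the cut-off, with a log2 ratio of 0.23 (0.06 to 0.40) that was -0.01 once length and GC content were taken into account.

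The 6 genes did not share a common ratio. Of the 15 pairs of members, 12 had log2 ratios that differed by more than counting error. The remaining 3 were the pairs among Stat2, Stat5b and Stat6, whose differences from each other included 0. Their intervals were -0.48 to 0.10 for Stat2 less Stat5b, -0.36 to 0.19 for Stat2 less Stat6 and -0.06 to 0.27 for Stat5b less Stat6. The farthest apart were Stat2 and Stat4, by -1.51 (-1.82 to -1.21). With the correction for length and GC content described below, the farthest pair was Stat2 and Stat5a, by -1.21, and Stat3 less Stat4 was -0.02.

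The order of the levels differed between the libraries. In WT it was Stat6, Stat3, Stat5b, Stat4, Stat5a and Stat2. Only Stat4 and Stat5a were not resolved from each other by counting there, with a ratio of 1.07 (0.94 to 1.20). In STAP-1 KO the order was Stat6, Stat3, Stat4, Stat5a, Stat5b and Stat2, and every neighbor differed by more than counting error. The closest pair was Stat3 and Stat4, with a ratio of 1.14 (1.05 to 1.24). Stat5b thus stood above Stat4 and Stat5a in WT and below both in STAP-1 KO. The gap from Stat6 to Stat3 was 1.78-fold (1.68 to 1.89) in WT and 1.27-fold (1.19 to 1.37) in STAP-1 KO. The STAP-1 KO order changed with the corrections described below. Here the WT levels were kept as deposited and the whole correction was put on STAP-1 KO. The relation with length lies in the ratio and cannot be assigned to either library, so these levels rest on that choice. WT levels multiplied by the length-corrected ratios gave 43.4 FPKM for Stat3, 38.4 FPKM for Stat6, 23.1 FPKM for Stat4, 18.6 FPKM for Stat5a, 18.3 FPKM for Stat5b and 5.17 FPKM for Stat2. With length and GC content corrected together the values were 47.8 FPKM for Stat3, 43.5 FPKM for Stat6, 23.5 FPKM for Stat5a, 22.0 FPKM for Stat4, 20.2 FPKM for Stat5b and 5.30 FPKM for Stat2.

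The STAT5 paralogs were compared with each other next. The sum of Stat5a and Stat5b was 48.6 FPKM in WT and 31.2 FPKM in STAP-1 KO, 1.56-fold lower (log2 ratio -0.64, -0.74 to -0.53). This log2 ratio was -0.40 with the length correction and -0.16 with that for length and GC content, both outside the interval. The estimated reads of both genes together, which do not depend on how shared reads were divided, were 1625 and 1397, a log2 ratio of -0.70 relative to the effective depths. Stat5a made up 42.8% of this sum in WT and 58.6% in STAP-1 KO, so that Stat5b was the more abundant paralog in WT and Stat5a in STAP-1 KO. In estimated reads, which are not divided by length, Stat5a had 35.9% (33.6% to 38.2%, Wilson) in WT and 51.5% (48.9% to 54.1%) in STAP-1 KO. The log2 ratio of Stat5a was 0.92 (0.71 to 1.13) above that of Stat5b. This difference was 0.44 with the correction for transcript length alone and 0.64 with that for length and GC content. Applying the length-corrected ratios to the WT levels, which were kept as deposited, gave Stat5a 50.4% of the sum in STAP-1 KO. Both the share and the difference depend on how Cuffnorm assigned reads of the shared runs.

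Stat5b, Stat5a and Stat3 form a cluster of 158810 bases on chromosome 11. Stat5a and Stat5b are transcribed away from each other from starts 8627 bases apart, and Stat5a and Stat3 run toward each other and overlap by 72 bases at their 3' ends. Within this cluster the log2 ratios were -1.10, -0.18 and -0.72. Stat6 overlaps Nab2, a corepressor of EGR factors, by 40 bases on the opposite strand, and Nab2 had 15.0 FPKM in WT and 4.54 FPKM in STAP-1 KO. Counting with strand is not stated, so reads in these overlaps cannot be assigned. Ghdc, 9773 bases from Stat5b, had 4.85 and 2.35 FPKM. The neighbors of Stat2 were nearly silent, with Apof at 0 and 0.0555 FPKM and Il23a at 0.348 and 0.498 FPKM.

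Genes with longer transcripts tended to be lower in STAP-1 KO across the whole table, so the STAT genes were set beside genes of like length. Over 10862 genes Spearman's rho between longest-transcript length and log2 ratio was -0.37, given as a description because genes share the same pair of libraries. The median log2 ratio was 0.48 for the shortest of 20 length bins and -1.001 for the longest. Stat3 (6042 bases), Stat4 (2982 bases) and Stat5a (3958 bases) lay near the median of their bins, with 44.7%, 54.0% and 45.7% of the genes of the bin below them. Stat5b (5213 bases) had 31.4% of its bin below it, whose median was -0.54. Stat2 (4397 bases) had 20.2% and Stat6 (3775 bases) 14.4% below, and the medians of their bins were -0.26 and -0.06.

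**Figure D2:**
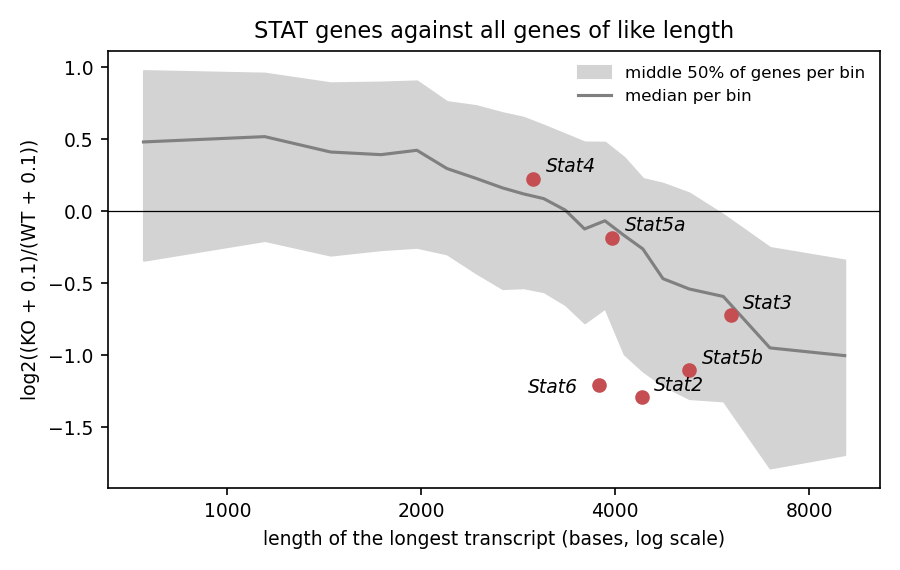
The log2 ratio of each STAT gene (red points) is plotted against the length of its longest transcript in bases on a log axis. The grey line is the median and the band the middle 50% of all genes averaging 1 FPKM or more in 20 length bins. Stat2 and Stat6 lie under the band, Stat5b inside its lower part, and Stat3, Stat4 and Stat5a close to the line.

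When the median of genes of like length and GC content was subtracted, the log2 ratio was -1.03 for Stat2, -0.999 for Stat6, -0.46 for Stat5b, -0.03 for Stat3, -0.01 for Stat4 and 0.18 for Stat5a. Stat2 was still counted as lower, and so was Stat6, at the very edge of the cut-off, which is applied to the ratio without the added 0.1 FPKM. Stat5b was not. After this correction the median of the 6 genes was -0.25, and the STAT5 sum had a log2 ratio of -0.16. Stat4 and Stat5a changed sign. The cause of the relation with length was not tested.

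**Figure D3:**
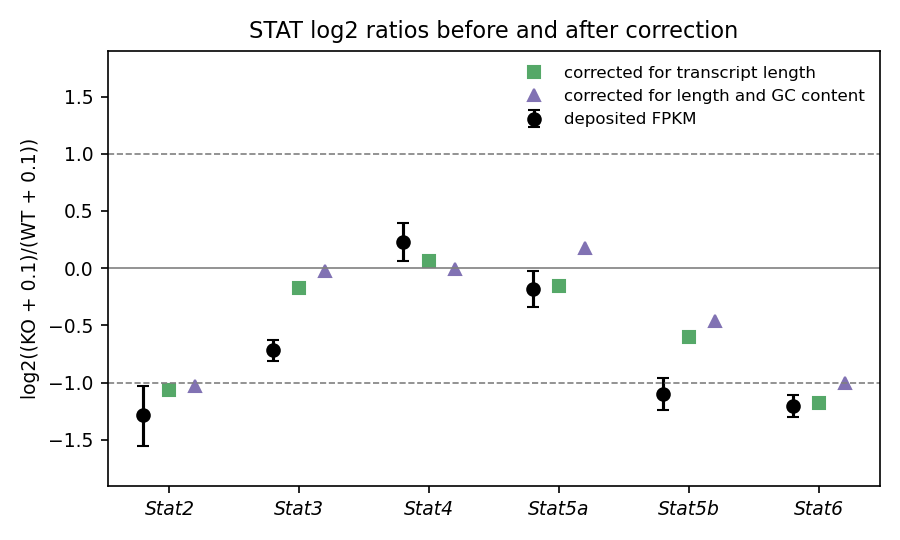
For each STAT gene the log2 ratio of the deposited FPKM (black, with 95% counting intervals) stands beside the value corrected for transcript length (green squares) and for length and GC content (purple triangles). Dashed lines mark 2-fold. With length and GC content corrected, Stat2 (-1.03) lies beyond the lower line and Stat6 (-0.999) at its edge.

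With only 2 libraries, likeness of pattern means only a similar pair of values. The genes nearest to each member on the log2(FPKM + 0.1) scale of both libraries were Urgcp and AI848100 for Stat2, Ier5 and Trex1 for Stat3, Ipo7 and Commd9 for Stat4, Scaf11 and Chtf8 for Stat5a, Zmiz2 and Etnk1 for Stat5b, and Actr2 and Rab8b for Stat6. The distances were between 0.0120 (Ipo7) and 0.0736 (Etnk1).

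The genes around the STATs were taken from lists of kinases, receptors, brakes, partners and known targets. Of their 156 genes, 144 reached 0.1 FPKM in both libraries. Among these, 51 (35.4%) were at least 2-fold lower in STAP-1 KO, 26 (18.1%) at least 2-fold higher and 67 below the cut-off. The background over all genes was 22.9% and 12.3%. These lists were chosen with earlier results of these data known, and the 51 include the deleted gene Stap1. The shares are therefore descriptions, and no excess over the background is read from them.

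**Figure D4:**
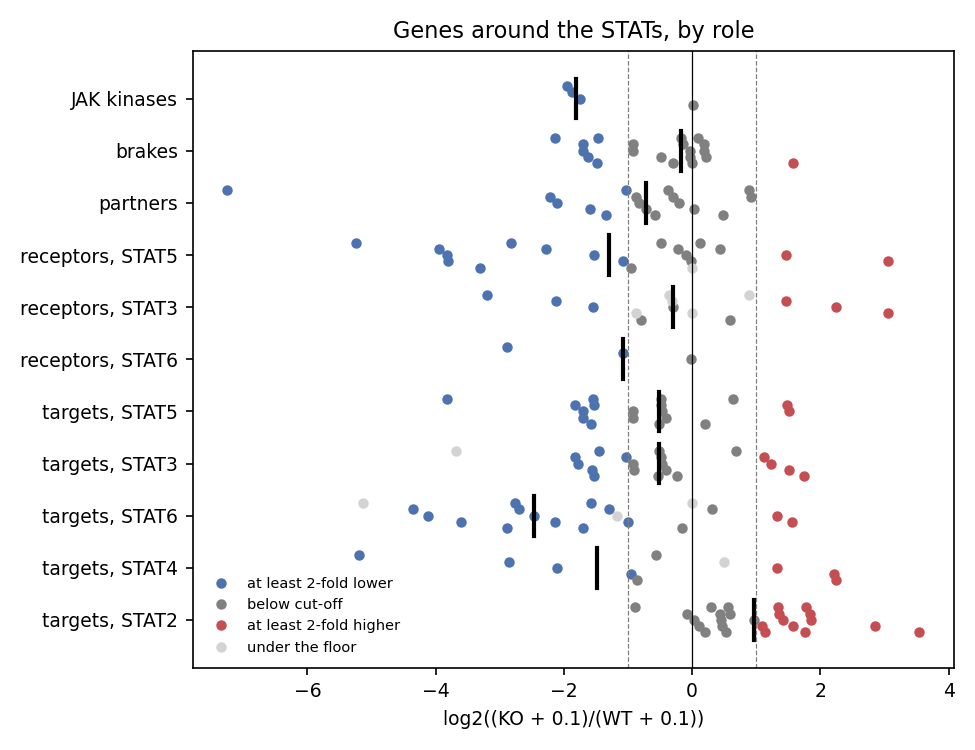
Each point is a gene, placed by its log2 ratio (horizontal axis) and its list (rows), and black bars are list medians over genes averaging 1 FPKM or more. The short receptor lists of STAT2 and STAT4 are left out. The STAT6 target points lie mostly left of the dashed line of 2-fold lower (median -2.47), and the STAT2 targets mostly right of 0 (median 0.97).

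Of the 4 JAK kinases, which phosphorylate the STATs, 3 were lower. Jak1 had 181 FPKM in WT and 54.0 FPKM in STAP-1 KO, Jak2, the kinase of the IL-3 and erythropoietin receptors, had 48.2 and 13.1 FPKM, and Tyk2, a kinase of the interferon receptor, had 31.8 and 8.17 FPKM. Jak3, the partner of the common gamma chain, had 14.3 and 14.4 FPKM. The median log2 ratio of the 4 was -1.81, and -1.30 after correction for length and GC content. In this correction the value of Jak3 was 0.52, which is below the cut-off.

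Of the 19 receptor genes that signal through STAT5, 9 were lower and 2 higher, with a median of -1.30. The common beta chain of the IL-3, IL-5 and GM-CSF receptors, Csf2rb, had 260 FPKM in WT and 26.2 FPKM in STAP-1 KO, and its IL-3-specific copy Csf2rb2 had 238 and 6.17 FPKM. These copies are nearly identical, so the division of reads between them is uncertain. Il2ra, the alpha chain of the IL-2 receptor, had 346 and 24.3 FPKM. In contrast, Csf3r, the G-CSF receptor, had 1.51 FPKM in WT and 13.3 FPKM in STAP-1 KO. Epor, the erythropoietin receptor, had 28.8 and 28.5 FPKM, and Csf2ra had 15.7 and 14.6 FPKM. Kit, also in this list, was lower together with the mast cell markers, and the part of those cells was not tested.

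The receptors of the other STATs were counted in the same way. For STAT3, 3 of 14 were lower, 3 higher, 3 below the cut-off and 5 under the floor. Il10ra, the IL-10 receptor alpha chain, had 73.1 and 7.91 FPKM, while Il21r had 1.89 and 9.36 FPKM and Il11ra1 had 3.69 and 10.3 FPKM. Il10rb had 47.4 and 38.6 FPKM, and Il27ra 15.2 and 8.69 FPKM. For STAT6, 2 of 3 were lower and Il13ra1, an IL-13 receptor chain named after its values were seen, had 1.04 and 1.02 FPKM. The IL-4 receptor alpha chain Il4ra had 112 FPKM in WT and 14.9 FPKM in STAP-1 KO, 7.48-fold lower, and the common gamma chain Il2rg had 626 and 298 FPKM. For STAT4, Il12rb2 had 12.5 and 8.44 FPKM, and neither of its 2 receptor genes reached the cut-off. For STAT2, none of the 4 receptor genes was lower or higher, and the interferon receptor chains Ifnar1 and Ifnar2 had 13.3 and 7.66 FPKM and 64.6 and 70.6 FPKM.

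Of the 20 genes that restrain the pathway, 6 were lower, 1 higher and 13 below the cut-off, with a median of -0.17 that was 0.09 after the correction. Among those lower, Cish had 432 and 133 FPKM, Socs1, which blocks JAK activity, had 78.2 and 24.1 FPKM, and Sh2b3, the adaptor LNK that restrains JAK2, had 35.02 and 7.86 FPKM. Usp18, which removes ISG15 and dampens interferon signaling, had 23.1 FPKM in WT and 69.2 FPKM in STAP-1 KO. The genes that did not pass included Socs2 at 123.7 and 64.99 FPKM, Socs3 at 18.9 and 13.5 FPKM, Socs4 at 11.1 and 10.9 FPKM and the phosphatases Ptpn1 at 26.6 and 23.6 FPKM, Ptpn2 at 241.9 and 127.6 FPKM and Ptpn6 at 148 and 168 FPKM. Of the PIAS inhibitors, which bind activated STATs, Pias3 was lower, with 7.67 and 2.69 FPKM, and is named after its values were seen. Pias1, Pias2 and Pias4 did not reach the cut-off and had 21.7 and 24.8 FPKM, 25.5 and 24.8 FPKM, and 25.5 and 25.3 FPKM.

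Of the 17 partners of the STATs, 6 were lower, none higher and 11 below the cut-off, with a median of -0.71 (-0.36 after the correction). Stap1, the deleted gene, was among those lower. Ep300, an acetyltransferase that STATs recruit, had 9.04 and 1.86 FPKM, and the coactivators Ncoa6 and Cited2 had 6.90 and 1.53 FPKM and 218.7 and 86.1 FPKM. Irf9, the partner of STAT2, had 32.8 FPKM in WT and 33.4 FPKM in STAP-1 KO. Nmi, which binds STATs, had 24.4 and 46.2 FPKM. The importins Kpna1 and Kpna3 had 54.4 and 36.2 FPKM and 39.7 and 55.6 FPKM, and the exportin Xpo1 69.5 and 60.0 FPKM. Stam, Stam2 and Snd1 had 25.7 and 20.9 FPKM, 24.96 and 15.2 FPKM, and 114.1 and 87.5 FPKM.

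The known targets were then grouped by STAT. Of the 18 STAT5 targets, 7 were lower, 2 higher and 9 below the cut-off, with a median of -0.51. Il2ra, Cish and Socs1 were lower as given above, and the survival kinase Pim2 had 103 and 29.0 FPKM. Myc was higher, with 59.2 FPKM in WT and 169 FPKM in STAP-1 KO, and so was Id1, which was named after its values were seen, with 17.3 and 48.1 FPKM. Of the survival genes, Bcl2l1 (BCL-XL) was lower, with 57.7 and 19.8 FPKM, and is likewise named after its values were seen. Bcl2 and Mcl1 did not reach the cut-off and had 68.9 and 36.2 FPKM and 142.5 and 103.3 FPKM, and Pim1 had 41.2 and 28.9 FPKM. The cyclins Ccnd2 and Ccnd3 had 72.5 and 51.6 FPKM and 162 and 186 FPKM, and Gfi1 had 8.19 and 12.7 FPKM. Of the 12 targets with a promoter sequence, 3 held TTCNNNGAA, namely Cish, Socs3 and Bcl6, beside 9.55% of all genes. The wider TTCNNNNGAA was in 1, Bcl2l1, beside 8.01% of all genes. TTCNNNGAA was also in 6 of 20 STAT2 targets and 3 of 13 STAT6 targets, so it was not particular to this list. These matches are given as descriptions.

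Of the 20 STAT3 targets, 6 were lower, 4 higher, 9 below the cut-off and 1 under the floor, with a median of -0.51. Over all genes compared, 22.9% were lower and 12.3% higher. The 4 higher were Myc, given above, Birc5 (118 and 276 FPKM), Cebpd (1.69 and 3.78 FPKM) and Il10 (0.607 and 2.26 FPKM). Birc5, Cebpd and Il10 are named after their values were seen. Fos, an immediate-early factor, had 1359 and 460 FPKM, Hif1a, the oxygen-regulated factor, had 130 and 36.5 FPKM, and S100a9, a myeloid calcium-binding protein, had 104 and 30.04 FPKM. Socs3 and S100a8 stayed below the cut-off, S100a8 at 204 and 108 FPKM. So did Bcl3 at 16.4 and 11.3 FPKM, Cebpb at 82.5 and 69.7 FPKM, Icam1 at 33.3 and 17.7 FPKM and Lcn2 at 17.8 and 28.7 FPKM. Of the 10 STAT4 targets, 4 were lower and 3 higher. Furin, a protease, had 662 FPKM in WT and 18.0 FPKM in STAP-1 KO. The chains of the IL-18 receptor went opposite ways, with Il18rap at 32.5 and 4.41 FPKM and Il18r1 at 1.49 and 7.31 FPKM. Map3k8 had 39.9 and 9.22 FPKM, and Gadd45g 24.0 and 13.2 FPKM.

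Of the 19 STAT6 targets, 12 were lower, 2 higher, 2 below the cut-off and 3 under the floor. The median log2 ratio was -2.47, or -2.21 with the length and GC correction. Egr2 had 52.2 FPKM in WT and 2.91 FPKM in STAP-1 KO, Chil3, a chitinase-like protein of alternatively activated macrophages, had 54.6 and 2.58 FPKM, and the cytokine Il4 had 274 and 42.2 FPKM. Il4ra is itself in this list. The summed level of the 19 genes was 5.49-fold lower, a larger ratio than the 2.31-fold of Stat6. Il4 and Il4ra are also expressed by mast cells and basophils, whose 12 markers were 9.88-fold lower in sum, and the part of these cells was not tested.

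The STAT2 targets are interferon-stimulated genes. Of 25 targets, 12 were higher, 13 below the cut-off and none lower, while Stat2 itself was lower. The log2 ratio was above 0 in 23 of 25, and the exceptions were Oas3 (7.13 and 3.81 FPKM, named after its values were seen) and Ddx58. The median log2 ratio was 0.97, and 0.86 after correction for length and GC content, with 21 of 25 above 0. Ifi44 had 0.988 FPKM in WT and 12.6 FPKM in STAP-1 KO, Rtp4 8.99 and 65.2 FPKM, Oasl2 7.97 and 28.6 FPKM, and Bst2, which tethers budding viruses, 71.96 and 244 FPKM. Isg15, a ubiquitin-like modifier, had 45.3 and 65.2 FPKM and was below the cut-off. So were Irf9, Rsad2 at 15.9 and 21.8 FPKM, Ifi35 at 60.8 and 65.3 FPKM, Cmpk2 at 16.1 and 31.5 FPKM and Ddx58 at 10.7 and 10.1 FPKM. The summed level was 927 FPKM in WT and 2221 FPKM in STAP-1 KO, 2.40-fold higher. Of the 20 targets with a promoter sequence, 11 held ISRE letters, beside 3.99% of all genes. The OAS and IFIT genes belong to multigene families, so reads shared between copies are uncertain.

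**Figure D5:**
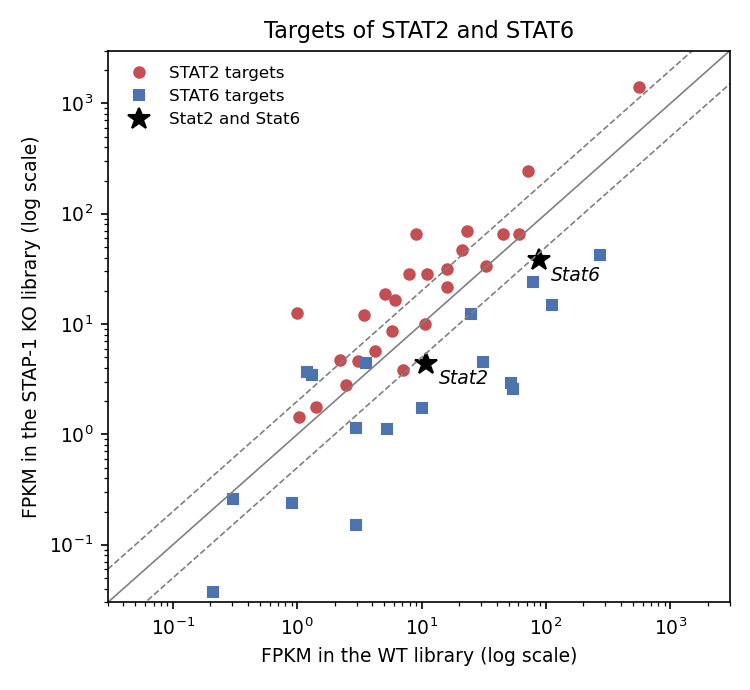
FPKM in the WT library (horizontal) and the STAP-1 KO library (vertical), both on log axes, for the targets of STAT2 (red circles) and STAT6 (blue squares), with Stat2 and Stat6 as stars. The solid line marks equal values and dashed lines 2-fold, and genes listed at 0 are not drawn. Both stars lie below the lower dashed line, 12 of 25 STAT2 targets lie above the upper one, and 13 of 19 STAT6 targets lie below the lower one, of which 1 (Mrc1) was under the floor and not counted as lower.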

How the data were processed

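RNA-seq was performed on GFP+ CD45.2+ LSK cells of WT and STAP-1 KO CML mice (SMART-Seq v4 cDNA, Nextera XT libraries, 75-base reads). The authors deposited FPKM values for each library. Per the labels and the methods they were made on mm10 with TopHat 2.0.13, Bowtie2 2.2.3 and Cufflinks 2.2.1 (Cuffnorm). The labels name SAMtools 0.1.19, and the methods name a different version of it. The gene annotation is not given in the sources used here.

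Ratios and counts were made in Python 3.11.15 (pandas 2.3.3, numpy 2.4.6, scipy 1.17.1) and drawn with matplotlib 3.10.9. Lists were described by medians over genes averaging 1 FPKM or more. Symbols were matched to GENCODE M21 (GRCm38), 20911 as written and 1913 through synonyms, with 460 unmatched. Estimated reads are FPKM times effective length times effective depth. The correction subtracts medians of 20 bins of length and of GC content. Steps were tested on simulated data.

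The STAT genes and all gene lists were chosen with earlier results of these data known. Named genes were all STAT genes, the JAKs, Stap1 and sort antigens, up to 4 genes per list past the cut-off ranked by absolute log2 ratio with 1 FPKM added, list members averaging at least 10 FPKM that did not pass, genes adjoining a STAT gene and the 2 genes nearest each. Lineage markers are given by counts, with values for some. A further STAT gene is not reported here.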

Additional observations from a re-analysis of the deposited data

How the results depend on the processing

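Stat2, Stat5b and Stat6 stayed the only STAT genes counted as lower with a floor of 1 FPKM, with no floor and under 3 other scalings of the libraries, which moved every log2 ratio by 0.04, 0.04 and -0.07. At a 1.5-fold cut-off Stat3 joined them. At a 4-fold cut-off the number of STAT genes lower was 0, and the pathway genes were 25 lower and 6 higher in place of 51 and 26. The median log2 ratio of the STAT genes was -0.39 after correction for transcript length and -0.25 after correction for length and GC content, in place of -0.91. The log2 ratio of the STAT5 sum was -0.40 and -0.16, in place of -0.64. In both corrections Stat2 and Stat6 were counted as lower and Stat5b was not. The number of STAT2 targets counted as higher was between 10 and 14 under all settings but the 4-fold cut-off, which gave 2. Of the values recomputed under the alternatives, 78 stayed within their counting interval or, for counts, within 1.5 times, and 16 did not. No paired analysis was possible because each genotype had 1 library. For the same reason no library could be left out, and the depth limits only the counting error, not the difference between animals.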
